A study of Mus musculus with 6 samples.

Results

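The 9 genes described here, Lhx2, Emx2, Ebf1, Ebf2, Ebf3, Ebf4, Ldb1, Kdm1a and Dlx5, encode regulators of olfactory sensory neuron identity and of the choice of an odorant receptor. They were chosen by name, and 18 of the 45101 probe sets of the Affymetrix array carry exactly 1 of these symbols in the platform annotation. RNA was measured in microdissected olfactory epithelium of 3 male Harlequin mice (Hq/Y) and 3 male wild-type littermates (+/Y), all 6 months old with no treatment named, with 1 array per mouse. Harlequin is an inherited mutation of the X-linked Aifm1 (formerly Pdcd8), present in every cell of the animal, so it is not restricted to the epithelium. The strain is given as B6CBACAw-J/A-Pdcd8-Hq/J for the mutants and as B6CBACa for the controls, and a difference in background cannot be told apart from the mutation. The study's stated aim was to relate gene expression to neuron loss under oxidative stress.

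In olfactory epithelium, horizontal and globose basal cells renew the sensory neurons throughout life. Each mature neuron expresses a single odorant receptor gene, while the other receptor genes are held in repressed chromatin. The LIM-homeodomain protein LHX2 and the EBF proteins bind together at the enhancers of receptor genes, and LDB1 links LHX2-bound enhancers on different chromosomes. EMX2 is a homeodomain protein needed for normal receptor gene expression. The histone demethylase LSD1, encoded by Kdm1a, acts in the short window in which the first receptor gene is switched on. DLX5 is a distal-less homeodomain protein needed for the development of the olfactory epithelium and its axons.

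No regulator among the 9 passed the test for a change in Harlequin epithelium. In the fit over all genes, 0 of 9 passed limma's test at a Benjamini-Hochberg adjusted p under 0.05, where 0.0303% of the 13219 genes tested did. At an unadjusted p under 0.05 there were 0 of 9, against 4.58% of all genes. With 1 array left out, Ebf4 reached a limma unadjusted p of 0.0281 (adjusted p = 0.926) without Harlequin replicate 1, and Ldb1 one of 0.0246 (adjusted p = 0.911) without control replicate 1. In 0 of 9 genes did the 3 Harlequin values all lie on one side of the 3 control values, against 10.4% of all genes. The smallest adjusted p was 0.981. The log2 differences, Harlequin minus control, ran from -0.21 for Emx2 to 0.23 for Ebf4, with a median of 0.05. Of the 9 differences 6 were above 0, where 50% of all genes were. The 95% intervals spanned 0 for all 9 genes, and as fold changes they reached from 0.641 at the lowest to 1.46 at the highest. In microdissected tissue, fewer cells of a type and less RNA per cell cannot be told apart. Log2 differences were taken on the log2(signal + 16) scale, which understates changes of dim genes.

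The tissue and the genotype were checked first. Aifm1, the mutated gene, gave 335.4, 221.1 and 211.2 in Harlequin and 1239.9, 1255.6 and 1128.2 in controls. Omp, the marker of mature olfactory neurons, lay between 15891.8 and 18821.7 on the 6 arrays. Cyp2g1, a cytochrome P450 of sustentacular cells and Bowman glands, lay between 16585.7 and 18072.4, and neither marker differed by more than its spread. The deposited arrays had the same trimmed mean of 500, with median signals of 107.9 to 119.7. Across genes, which are not independent replicates, arrays correlated at a Pearson r of 0.973 to 0.981 within a genotype and 0.971 to 0.982 between genotypes.

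**Figure D1:**
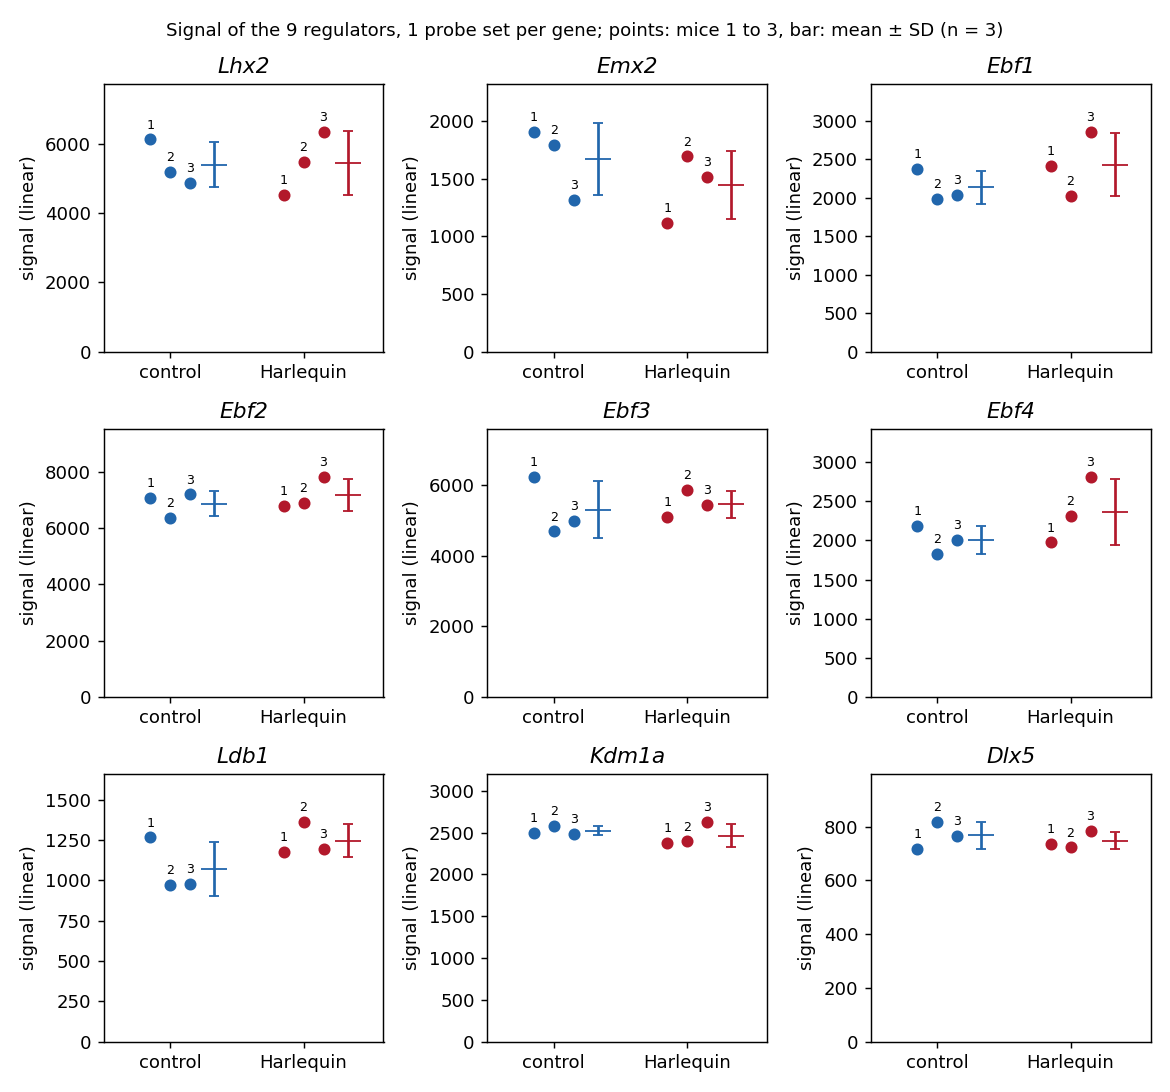
Linear array signal (vertical axes, from 0) of the 9 regulators at the brightest probe set of each gene, in 3 control and 3 Harlequin mice (points, numbered by replicate), with the mean ± SD of each genotype beside them. The genotypes overlap in all 9 panels, and Harlequin replicate 1 is the lowest mouse for Lhx2, Emx2 and Kdm1a.

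Lhx2, the homeodomain partner of the EBF proteins at receptor enhancers, had 1 probe set. Its signal was 4522.5, 5484.5 and 6343.5 in Harlequin replicates 1, 2 and 3, and 6128.8, 5198 and 4879.7 in control replicates 1, 2 and 3. The mutants held both the highest and the lowest of the 6 values, with the controls between them. The means were 5450 ± 911 in Harlequin and 5402 ± 649 in controls (SD, n = 3), or 101% of control. The log2 difference was 0.01 (SE 0.14, 95% interval -0.31 to 0.32; limma adjusted p = 0.999). Its sign followed single mice, with -0.11 without Harlequin replicate 3 and 0.13 without Harlequin replicate 1, and it was also below 0 without Harlequin replicate 2 (-0.01), control replicate 2 (-0.02) or control replicate 3 (-0.06).

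Ldb1, which encodes the adaptor that binds the LIM domains of LHX2, gave 1178.2, 1363.8 and 1195.4 in Harlequin and 1267, 973.9 and 977.2 in controls at its single probe set. All 3 mutants lay above control replicates 2 and 3, and control replicate 1 lay among the mutants. The log2 difference was 0.22 (SE 0.13, 95% interval -0.08 to 0.52), at 1246 ± 103 against 1073 ± 168 (SD, n = 3). Its unadjusted p in limma was the smallest of the 9 genes, at 0.132, and its adjusted p was 0.981. Leaving out 1 array moved the difference between 0.15 and 0.34, with the sign kept each time.

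The 4 EBF genes encode helix-loop-helix proteins first found as olfactory neuron and early B cell factors, which bind a palindromic site in promoters of olfactory signalling genes. Their 12 probe sets had log2 differences from -0.12 to 0.32, with 10 above 0 and 2 below. None passed in the fit over all 45037 non-control probe sets (smallest limma adjusted p = 0.972), where 0.0133% of probe sets passed. Over the 18 probe sets of all 9 genes, 0 separated the genotypes, against 9.96% of all probe sets, and 0 had an unadjusted p under 0.05, against 5.04%.

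Ebf1 had 5 probe sets. The brightest, 1448293_at, gave 2409.3, 2026.1 and 2851.5 in Harlequin and 2370.2, 1987.8 and 2037 in controls. Harlequin replicates 1 and 3 lay above all controls, and Harlequin replicate 2 lay among them. Its log2 difference was 0.18 (SE 0.14, 95% interval -0.14 to 0.49; limma adjusted p = 0.981). It moved from 0.06 without Harlequin replicate 3 to 0.30 without Harlequin replicate 2. The other 4 Ebf1 probe sets differed by 0.02 (1416301_a_at), 0.14 (1416302_at), 0.01 (1439789_at) and 0.26 (1457441_at), and the mean over all 5 by 0.12. They did not give the same ranking of the mice. At 1416301_a_at control replicate 1 was highest, at 1874.6, and Harlequin replicate 1 lowest, at 1141.3. At 1457441_at Harlequin replicate 2 was highest, at 422.9, and control replicate 3 lowest, at 276.3. The signs at 1416301_a_at and 1439789_at turned with single arrays left out, with ranges of -0.10 to 0.21 and -0.08 to 0.11.

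Ebf1 is also expressed by B cells, fat cell precursors and stroma, so the levels of their markers are given beside it. Of the 9 B cell markers 8 were on the array. Their signals added up to 1037.5, 964.9 and 821 in Harlequin replicates 1, 2 and 3. In control replicates 1, 2 and 3 the sums were 732.1, 553.3 and 611.4, without overlap. Vpreb3 alone gave 586.5 of the 1037.5 in Harlequin replicate 1. It was at 242 and 286.9 in the other mutants and at 241.6, 188.6 and 229.8 in controls. Without Vpreb3 the sum of Harlequin replicate 1 would lie below that of control replicate 1, so the sums would overlap. Cd79a, Pax5 and Blk lay below the filter on dim genes. The 5 markers above it all had log2 differences over 0 at their brightest probe sets, with a median of 0.39 and 0 passing the test. Cd22, one of these, was at -0.13 when its probe sets were averaged, and the others stayed above 0. The summed signal of 6 adipocyte markers was 622.6 to 1438.9 in Harlequin mice and 532.7 to 669.1 in control mice, with Cidec, Lep and Retn below the filter. The 3 adipocyte genes tested all had differences above 0. The hormone Adipoq was at 202.7, 316.8 and 272.7 in the mutants and 121.3, 89.2 and 110.5 in controls, without overlap, and did not pass over all genes (log2 difference 1.17; limma adjusted p = 0.750). That of 8 fibroblast markers was 17188.3 to 33999.9 and 22283.9 to 35095.5, and that of 6 pericyte markers 15347.3 to 16538.6 and 15054.9 to 20081.3. All 8 fibroblast genes tested and all 5 pericyte genes tested had differences below 0, with medians of -0.30 and -0.28 and 0 passing. No value on the arrays was 0. The part of these cells in the Ebf1 values was not tested.

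Ebf2 had 3 probe sets, which lay on both sides of 0. The brightest, 1418494_at, gave 6811.2, 6919.2 and 7831 in Harlequin and 7087.5, 6357.8 and 7206.8 in controls, with a log2 difference of 0.06 (SE 0.09, 95% interval -0.13 to 0.26; limma adjusted p = 0.982). This interval is among the narrowest of the 9 genes, with folds from 0.911 to 1.20. Without Harlequin replicate 3 the difference was -0.002. At 1449101_at the values were 3714.5, 4143.8 and 4287.4 in Harlequin and 4006.3, 3169.2 and 2636.3 in controls. Control replicates 2 and 3 lay below all mutants there, while control replicate 1 lay among them. This probe set had the largest difference of the 18, at 0.32 (95% interval -0.01 to 0.66, limma unadjusted p = 0.0544, adjusted p = 0.972). Leaving out 1 array moved it between 0.18 and 0.48. The smallest limma unadjusted p among those fits was 0.00427, and the smallest adjusted p was 0.811. At 1449102_at the mutants were at 3360.1, 3837.3 and 4190.8 and the controls at 4203, 4554.8 and 3597, a log2 difference of -0.12. The ratio of the signal at 1449101_at to that at 1449102_at in the same array was 1.11, 1.08 and 1.02 in Harlequin and 0.953, 0.696 and 0.733 in controls.

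All 3 mutants thus had a higher ratio of these Ebf2 probe sets than all 3 controls, by 0.44 on the log2 scale. The p of the ratio was 0.1 by a two-sided exact permutation test over the 6 arrays, which cannot go lower with groups of 3, and 0.618 after Benjamini-Hochberg adjustment over the 17 pairs of probe sets within the 9 genes. Of those 17 ratios 2 did not overlap between the genotypes, the other being 1439789_at to 1457441_at of Ebf1, where 10.7% of the 30406 such pairs on the whole array did not. These ratios were examined after the differences had been seen.

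Ebf3 had 3 probe sets. The brightest, 1452751_at, gave 5091.7, 5857.7 and 5431.5 in Harlequin and 6231.7, 4686.2 and 4995.9 in controls. Control replicate 1 was the highest mouse and control replicate 2 the lowest, so the mutants lay inside the range of the controls. The log2 difference was 0.05 (SE 0.12, 95% interval -0.21 to 0.31; limma adjusted p = 0.988), and it was 0.17 without control replicate 1 and -0.03 without control replicate 2. It was -0.002 without Harlequin replicate 2. The other probe sets differed by 0.11 (1428349_s_at) and -0.001 (1460666_a_at). The last of these was at 0.03 after median scaling, which raised the median of all genes by 0.03.

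Ebf4, the fourth member of the family, gave 1974.8, 2313.3 and 2812.9 in Harlequin and 2189.1, 1822.9 and 2003.9 in controls at its single probe set. Harlequin replicates 2 and 3 lay above all controls, and Harlequin replicate 1 lay among them. The means were 2367 ± 422 and 2005 ± 183 (SD, n = 3), a log2 difference of 0.23 (SE 0.14, 95% interval -0.09 to 0.54; limma adjusted p = 0.981). Leaving out 1 array moved it between 0.10, without Harlequin replicate 3, and 0.35.

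**Figure D2:**
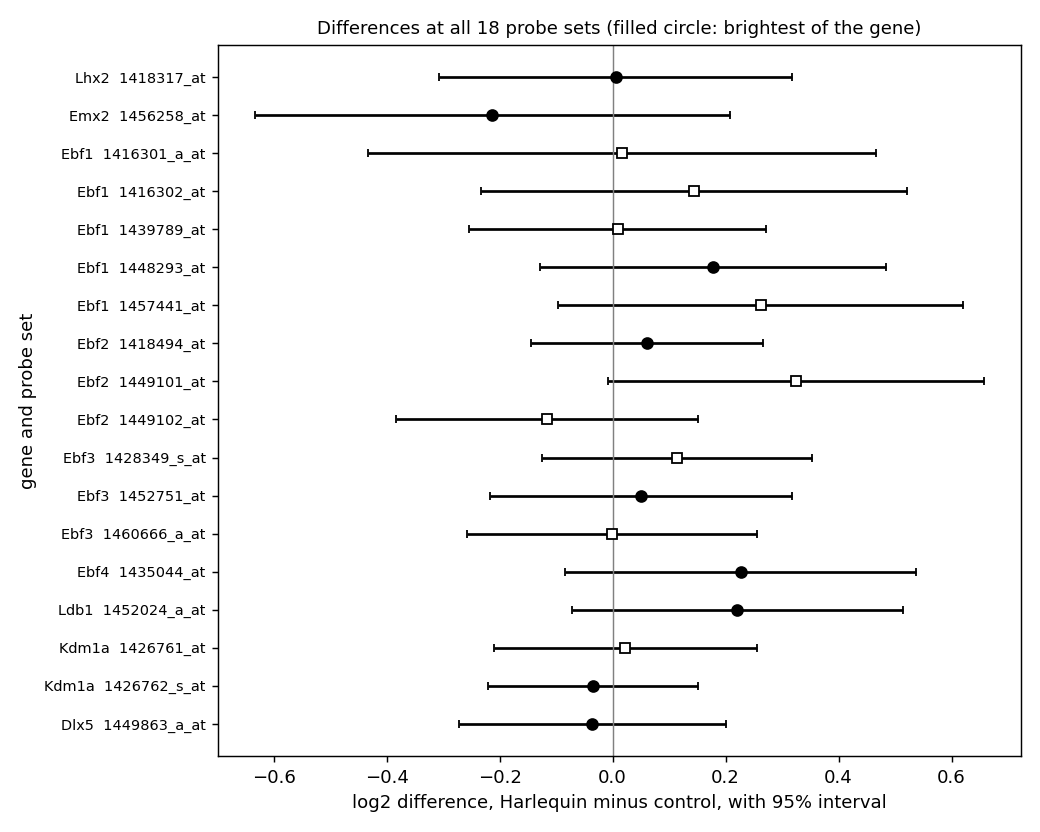
Log2 difference in signal, Harlequin minus control (horizontal axis), with its 95% limma interval at each of the 18 probe sets (vertical axis, gene and probe set), from the fit over all non-control probe sets. Filled circles mark the brightest probe set of a gene and open squares the others. All 18 intervals include 0, and the Ebf2 probe sets lie from -0.12 to 0.32.

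Emx2, the homeodomain factor needed for normal odorant receptor expression, had the largest negative difference among the 9 genes. It gave 1119.4, 1694.5 and 1515.9 in Harlequin and 1905.8, 1794.5 and 1315 in controls. Control replicates 1 and 2 lay above all mutants, and control replicate 3 lay below 2 of the 3 mutants. The means were 1443 ± 294 and 1672 ± 314 (SD, n = 3), or 86.3% of control. The log2 difference was -0.21 (SE 0.19, 95% interval -0.64 to 0.22; limma adjusted p = 0.982). It moved from -0.38 to -0.04 as single arrays were left out, the weakest value coming without Harlequin replicate 1.

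Dlx5 gave 736.6, 722.6 and 784.9 in Harlequin and 718.4, 817.8 and 767 in controls. The 6 mice stayed within 1.14-fold of one another, and the controls held both the lowest and the highest value. The log2 difference was -0.04 (SE 0.11, 95% interval -0.28 to 0.21; limma adjusted p = 0.994), and 0.01 without control replicate 2. Dlx5 is also a gene of bone-forming cells, and turbinate bone can enter the dissection. The summed signal of the 7 bone markers on the array was 1260.6, 4242.1 and 2763.9 in Harlequin and 3489.1, 2285.2 and 2284.2 in controls, with Sost and Mepe below the filter. The part of bone in the Dlx5 values was not tested.

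Kdm1a, the histone demethylase gene, had the smallest ratio of highest to lowest mouse among the 9. Its brightest probe set, 1426762_s_at, gave 2372, 2395.1 and 2628.8 in Harlequin and 2498.7, 2582 and 2488.1 in controls, within 1.11-fold of one another. The means of 2465 ± 142 and 2523 ± 51.4 (SD, n = 3) differed by -0.03 on the log2 scale (SE 0.08, 95% interval -0.23 to 0.16; limma adjusted p = 0.989). The interval corresponds to folds from 0.855 to 1.12. The other probe set, 1426761_at, differed by 0.02.

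The regulators varied between mice of 1 genotype. At the probe set used, the range within the Harlequin group reached 0.59 for Emx2, 0.51 for Ebf4, 0.49 for Lhx2 and 0.49 for Ebf1 on the log2 scale. Over all 18 probe sets the highest mouse was Harlequin replicate 3 in 8 and control replicate 1 in 6. The lowest was Harlequin replicate 1 in 6, control replicate 3 in 6 and control replicate 2 in 5. The mean deviation of the 9 genes from their means over the 6 arrays was -0.10, 0.04 and 0.14 in Harlequin replicates 1, 2 and 3, and 0.10, -0.07 and -0.10 in control replicates 1, 2 and 3. Harlequin replicate 1 and control replicates 2 and 3 were therefore the low arrays, and the split cut across the genotypes.

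Markers of the neuronal lineage were set beside this pattern. For the 8 mature neuron markers measured, the mean deviation was lowest in Harlequin replicate 1, at -0.24, and highest in control replicate 1, at 0.12. The dim Cngb1, at -1.64 in Harlequin replicate 1, carried most of that low value. Without Cngb1, left out only once its values had been seen, the mean deviation of the other 7 was -0.04, 0.04 and 0.09 in Harlequin replicates 1, 2 and 3, and 0.06, -0.10 and -0.04 in control replicates 1, 2 and 3. The summed signal of all 8, Cngb1 included, was 98672.5 to 105296 in Harlequin mice and 96497.6 to 104959 in control mice. Control replicate 2 was lowest and Harlequin replicate 3 highest. For globose basal cell markers Harlequin replicate 1 was lowest, at -0.36, and control replicate 2 highest, at 0.23. The dim Neurog1 weighed on that low value too. It gave 9.9, 148.7 and 87.8 in Harlequin replicates 1, 2 and 3, and 99.7, 109 and 83 in control replicates 1, 2 and 3. The summed signal of the 7 globose basal cell markers was 3585.5 to 4390 in Harlequin mice and 3876.2 to 4643.1 in control mice. All 7 had log2 differences below 0, with a median of -0.09. For each of them the genotypes overlapped, and 0 passed the test. For the 10 immature neuron markers, control replicate 3 was lowest, at -0.25, with sums of 16358.9 to 18344.8 and 14782.2 to 17747.4. The 5 horizontal basal cell markers summed to 7169 in Harlequin replicate 1, against 2797.6 and 2901.3 in the other mutants and 2403.8, 4519.5 and 4164.7 in controls. Krt15 alone gave 3600.4 of that 7169, against 411.9 and 569.8 in the other mutants and 159.4, 1348.3 and 1257.5 in controls. Of these 5 markers 4 had differences above 0 and 1 below, and 0 passed. Icam1 was above all controls in all mutants (0.69, limma unadjusted p = 0.0130, adjusted p = 0.981). Trp63 was the one below 0 (-0.46, limma unadjusted p = 0.0290, adjusted p = 0.981). Sustentacular cell markers, 5 on the array, summed to 75958.7 to 76987.1 in the mutants and 75999.7 to 79076.4 in controls. Lhx2, Emx2 and the EBF genes are also active in the developing brain. The 8 olfactory bulb markers summed to 3559.4 to 4169.7 and 3160 to 3749.4, with Tbr1, Tbx21, Th, Slc6a3 and Slc17a7 below the filter. The 3 tested went different ways, and none passed. Eomes lay above all controls in all mutants (0.57, or 0.39 when its probe sets were averaged). Reln lay below all controls (-0.52, or -0.12 averaged), and Cdhr1 overlapped (0.27). RNA integrity was read from Gapdh probe sets as the 3' signal over the 5' signal, which was 0.790, 0.787 and 0.729 in Harlequin and 0.779, 0.740 and 0.846 in controls. The part of cell content and RNA quality in the array pattern was not tested.

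**Figure D3:**
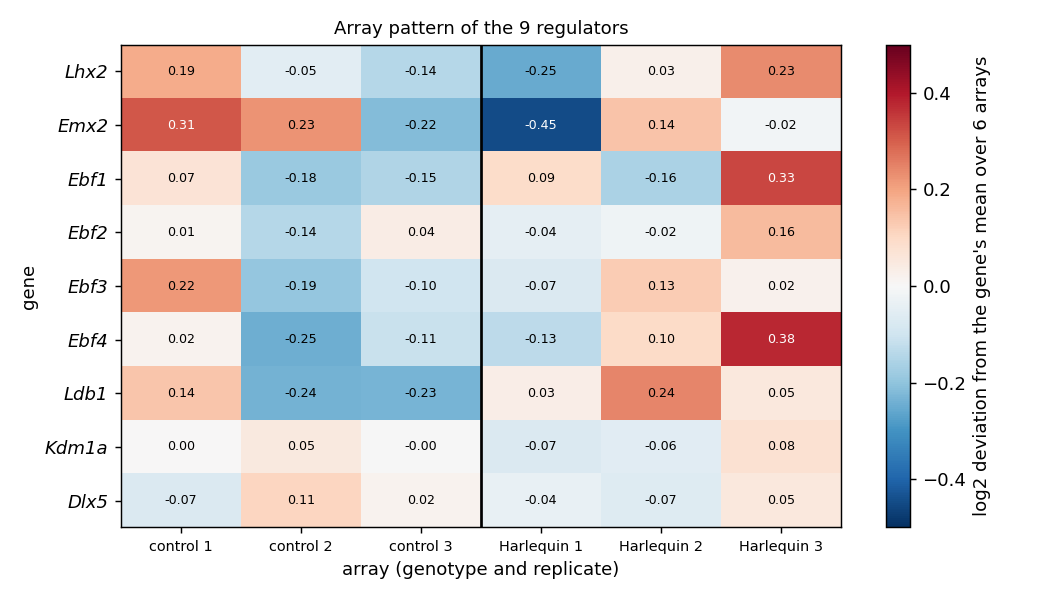
Log2 deviation (colour and printed number) of each of the 9 regulators (rows) from its own mean over the 6 arrays (columns: 3 control, then 3 Harlequin mice). Emx2 has the widest span, from 0.31 in control replicate 1 to -0.45 in Harlequin replicate 1, while Kdm1a and Dlx5 stay within 0.11 of their means.

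Emx2, Ebf4 and Ebf1 had the largest spread over the 6 mice. The genes whose log2 values followed each of them most closely over these 6 arrays were Zfp940 (r = 0.9997) and Atp2b1 (r = 0.991) for Emx2, Mapkapk5 (r = 0.992) and Trim66 (r = 0.991) for Ebf4, and Nupl1 (r = 0.993) and N4bp2l1 (r = 0.991) for Ebf1. Zfp940 was close to the filter on dim genes, at 45.2 to 82.8. These are the closest of 13218 other genes over 6 points and are given as a description.

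The 250 bases before the annotated starts of the regulators were searched for the sites of the family itself (RefSeq, GRCm38.p6). Any link between such sites and the array pattern was not tested. There were 11 such windows for 7 of the 9 genes, all except Ebf2 and Dlx5. An EBF core was searched as TCCCNNGGG and its reverse complement CCCNNGGGA, and a homeodomain core as TAATNA and TNATTA, both on either strand. The EBF letters searched are not themselves a full palindrome. The EBF core was found in 1 window, that of Ebf3, and in 5.60% of all 32851 windows. The homeodomain core was also found in 1, that of Kdm1a, and in 24.3% of all windows. Both windows are printed because they are the ones with a match, which stands in capitals. Ebf3 lies at chr7:137314446-137314695 and Kdm1a at chr4:136602724-136602973, each read on the minus strand.
Ebf3: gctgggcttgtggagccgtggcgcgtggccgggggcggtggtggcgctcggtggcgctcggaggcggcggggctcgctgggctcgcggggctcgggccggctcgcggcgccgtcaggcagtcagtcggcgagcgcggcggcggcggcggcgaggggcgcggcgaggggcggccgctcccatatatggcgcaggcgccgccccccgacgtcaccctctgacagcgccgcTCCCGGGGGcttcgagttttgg
Kdm1a: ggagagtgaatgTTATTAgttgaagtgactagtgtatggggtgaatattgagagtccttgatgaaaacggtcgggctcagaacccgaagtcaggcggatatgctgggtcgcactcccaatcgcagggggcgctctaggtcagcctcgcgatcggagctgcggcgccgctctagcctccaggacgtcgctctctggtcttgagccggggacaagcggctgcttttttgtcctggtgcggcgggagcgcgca
The match begins 22 bases before the start in Ebf3 and 238 bases before it in Kdm1a. A match of letters is a description of the sequence and not a binding site.

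Genes that work with these regulators were taken from 8 lists, 113 genes in all, of which 94 were tested. None passed (smallest limma adjusted p = 0.981). Of the 94, 56 had a difference above 0 and 38 below, with a median of 0.03 beside a median of 5.2e-05 for all genes. At an unadjusted p under 0.05 there were 5, or 5.32%, against 4.58% of all genes, and 7, or 7.45%, did not overlap between the genotypes, against 10.4%.

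Among partners of the LIM complex and cofactors of EBF, 11 of 13 genes were tested, 6 above and 5 below 0, with a median of 0.07. Ssbp2, which stabilises LDB1, was at 5518.6, 5827 and 5382.2 in Harlequin and 4851.2, 5057.9 and 4150.6 in controls at its brightest probe set. All mutants lay above all controls, by a log2 of 0.25 (limma unadjusted p = 0.0240, adjusted p = 0.981), and the mean over its 4 probe sets differed by 0.04. The LIM-only genes Lmo4 and Lmo2, whose proteins compete for LDB1, differed by 0.19 and 0.17, and Lmo2 by -0.02 without Harlequin replicate 2. Rlim, a ubiquitin ligase that targets LDB1 and LIM proteins, differed by -0.06. Zfp423, a zinc finger protein that blocks EBF activity, gave 415.6, 530.3 and 498.2 in Harlequin and 676, 463.8 and 520.7 in controls, a difference of -0.19.

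In the corepressor complex around LSD1, 12 of 14 genes were tested, with 6 on either side of 0 and a median of 0.003. The deacetylases Hdac1 and Hdac2 differed by 0.12 and -0.14, and the scaffold Rcor1 by -0.02. Zmym3 differed by -0.19, or -0.01 when its probe sets were averaged, and Rest by -0.11, or 0.01 without control replicate 3. Of the genes of repressive chromatin, 12 of 14 were tested, 9 above and 3 below 0, with a median of 0.04. Setdb1 and the G9a-like Ehmt1, both histone H3 lysine methyltransferases, differed by 0.17 and 0.04, and Ehmt2, which encodes G9a, by -0.004. The heterochromatin proteins Cbx1 and Cbx3 differed by -0.11 and -0.24, the latter at a dim probe set. Lbr, the nuclear envelope receptor whose loss in neurons accompanies receptor gene clustering, differed by 0.13.

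The receptor feedback list holds genes of the unfolded protein response branch that follows the first receptor protein, together with Adcy3, Reep1, Rtp1 and Rtp2. Of its 9 genes 6 were tested, all above 0, with a median of 0.03. Adcy3 and Reep1 are among these 6, and Adcy3 differed by 0.01. Ddit3 had the largest difference, 0.31 (95% interval -0.09 to 0.71), while Eif2ak3, the kinase PERK, differed by 0.05 and its downstream factor Atf5 by 0.01. Eif2ak3 was at -0.003 without control replicate 2. The chaperone Hspa5 differed by 0.02, with values from -0.02 to 0.08 as single arrays were left out. Reep1 differed by 0.12, and by -0.04 when its probe sets were averaged.

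Other homeobox and placode factors numbered 16, of which 11 were tested, 7 above and 4 below 0, with a median of 0.08. Dlx1, Dlx2 and Emx1, relatives of Dlx5 and Emx2, were below the filter. Dlx6, which neighbours Dlx5 in the genome, differed by -0.12 (95% interval -0.54 to 0.30). Meis1 was at 378.6, 470.4 and 312.1 in Harlequin and 290.4, 295.8 and 301.4 in controls, with all mutants above all controls (0.35; limma adjusted p = 0.981), or 0.14 when its probe sets were averaged. The stem cell factor Sox2 differed by -0.28. Eya1 differed by -0.24 and Pax6 by 0.26, and the mean over their probe sets lay the opposite way, at 0.05 and -0.24.

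Of the neurogenic factors 16 of 17 were tested, 5 above and 11 below 0, with a median of -0.06. The zinc finger gene Bcl11b differed by 0.42 (95% interval -0.03 to 0.87), Nhlh2 by 0.27, Nfia by -0.21 and Nfib by -0.11, the last at 0.00052 when its probe sets were averaged. Neurod1, expressed in late progenitors, differed by -0.02 (95% interval -0.51 to 0.46).

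Genes that carry the olfactory signal, several of them with known EBF sites, were tested in 14 of 15 cases, 10 above and 4 below 0, with a median of 0.03. Cnga2, the channel subunit, gave 12686 ± 704 (SD, n = 3) in mutants against 12318 ± 603 in wild-type mice, a log2 difference of 0.04 with a 95% interval of -0.12 to 0.20. Adcy3, the adenylyl cyclase, differed by 0.01 (95% interval -0.20 to 0.22) and Gnal, the olfactory G protein, by 0.04. Pde4a, a cyclic AMP phosphodiesterase, was at 1665.8, 1818.4 and 1834.2 in Harlequin and 1568.9, 1216.3 and 1435.3 in controls. All mutants lay above all controls, by 0.34 (limma unadjusted p = 0.0188, adjusted p = 0.981). Ric8b, which assists the olfactory G protein, differed by 0.11 and Gnb1 by -0.14. Cngb1 was dim, at 11.1, 81.8 and 49.9 in Harlequin against 108.4, 114.3 and 110.7 in controls. All mutants lay below all controls, with a log2 difference of -1.19 (limma unadjusted p = 0.0240, adjusted p = 0.981). The Cngb1 difference moved between -1.59 and -0.66 as single arrays were left out.

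The odorant receptor genes, whose choice these factors govern, had 39 genes on the array, of which 29 were tested, 12 above and 17 below 0, with a median of -0.14. None passed limma's test over all genes, and 1 had an unadjusted p under 0.05. Their mean deviation was lowest in Harlequin replicate 1, at -0.31, and highest in Harlequin replicate 3, at 0.28. Their summed signal ranked the mice otherwise, lowest in control replicate 1, at 10844.6, and highest in control replicate 2, at 13047.

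Guidance genes, which shape the projection of olfactory axons, were tested in 14 of 17 cases, 8 above and 6 below 0, with a median of 0.02. Robo2, a receptor for Slit proteins, was at 115.7, 92.5 and 134.9 in Harlequin and 181.2, 227 and 181.2 in controls, with all mutants below all controls (-0.71; limma unadjusted p = 0.00621, adjusted p = 0.981). The Slit gene Slit1 lay the other way, by 0.52, or 0.22 when its probe sets were averaged. Sema3a differed by -0.36 and the semaphorin receptor gene Plxna3 by 0.23.

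**Figure D4:**
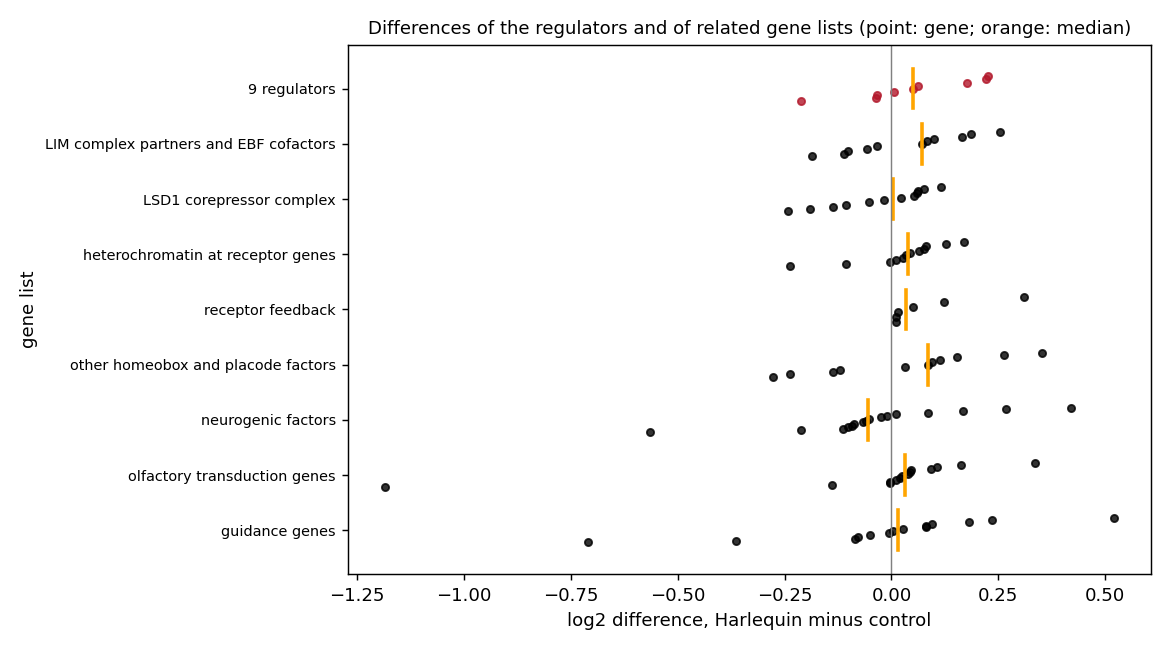
Log2 difference in signal, Harlequin minus control (horizontal axis), for each tested gene (point) of the 9 regulators and of the 8 related lists (vertical axis), with the list's median in orange. The 9 regulators lie between -0.21 and 0.23, and the points furthest from 0 are Cngb1 (-1.19) and Robo2 (-0.71).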

How the data were processed

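Total RNA from each of 6 mice was hybridised to 1 Affymetrix array. The deposited table holds probe set intensities on a linear scale, which the authors had scaled to a trimmed mean of 500 per array, as the values show; the software is not given in the sources used. Mice were grouped by the labels' titles. Per the labels' protocols they arrived at 13 weeks of age, and labelled cRNA was made from 3 µg of RNA.

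Values were analysed as log2(intensity + 16). The 64 control probe sets were left out. Each gene was represented by its brightest probe set, and genes above the 40th percentile of mean signal (61.1) were kept, as were all 9 members. Every non-control probe set was also fitted, without a filter. The genotypes were compared with limma 3.58.1 under R 4.3.3, using an intensity trend and Benjamini-Hochberg adjustment over all features. The members' 9 gene identifiers carried the same symbols in RefSeq. With 3 arrays per genotype, their number limits the precision. The labels call the arrays biological replicates. The pipeline was tested on simulated data.

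The members and lists were chosen with earlier results of these data known. Named genes were Aifm1, the members, tissue markers, up to 4 genes per related list by smallest p, list members described by role, and for the 3 most variable members the 2 closest genes by Pearson correlation. Alternatives covered pseudocounts of 1 and 64, the filter, normalization, variance model, array weights, probe set choice, the replicate block and each array left out.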

Additional observations from a re-analysis of the deposited data

How the results depend on the processing

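The number of the 9 regulators called stayed at 0 under all 17 alternatives, including each array left out in turn, and their smallest adjusted p over 153 such values was 0.892. Of those 153 values 144 kept their sign. The filter and trend settings, like the block, leave each member's difference as it is, so they could not turn a sign. Averaging over probe sets changes nothing for Lhx2, Emx2, Ebf4, Ldb1 and Dlx5, which have 1 probe set each. Leaving out suffixed probe sets changed the probe set used for Kdm1a only. Those signs too were fixed in advance. At an unadjusted p under 0.05 in the gene fit the regulators numbered 0, but 1 without Harlequin replicate 1 (Ebf4) and 1 without control replicate 1 (Ldb1). In the probe set fit with 1 array left out, the smallest limma unadjusted p was 0.00427, at 1449101_at of Ebf2 (smallest adjusted p = 0.811). It also fell under 0.05 for Ldb1 (0.0192), Ebf4 (0.0264), and 1416302_at (0.0417) and 1448293_at (0.0470) of Ebf1. Over all genes, 4 were called, and 0 without an intensity trend (643 at an unadjusted p under 0.05), 0 with the replicate block (541 at an unadjusted p under 0.05), and 0 to 3 with 1 array left out. Over all probe sets 6 were called, and 0 without the trend, 0 with the block, and 0 to 8 with 1 array left out. Whether mice of the same replicate number share a litter or day is not stated. The deviations of same-numbered mice correlated at -0.24, -0.03 and 0.06, which with 3 arrays per genotype cannot decide it. In this balanced design the block leaves each difference as it is by construction. Signal over background is known here only through the filter on mean signal, which all 18 probe sets passed.
With 1 array left out, signs turned for Lhx2 (-0.11 to 0.13), Ebf2 (-0.0018 to 0.099), Ebf3 (-0.033 to 0.17), Dlx5 (-0.082 to 0.010), 1416301_a_at (-0.10 to 0.21) and 1439789_at (-0.075 to 0.11) of Ebf1, 1460666_a_at of Ebf3 (-0.11 to 0.081), 1426761_at of Kdm1a (-0.049 to 0.071), Omp (-0.011 to 0.11), Gap43 (-0.22 to 0.046), Krt5 (-0.27 to 0.19), Cyp2g1 (-0.034 to 0.028), Lmo2 (-0.022 to 0.32), Rest (-0.21 to 0.0078), Eif2ak3 (-0.0025 to 0.085) and Hspa5 (-0.022 to 0.083). Kdm1a was at 0.023 without probe sets of suffix _s_at or _x_at, and 1460666_a_at at 0.030 after median scaling. Krt5 was at -0.0018 after quantile normalization and -0.054 with array weights, and Cyp2g1 at -0.0032 with array weights. The mean over probe sets turned Reep1 (-0.044), Eya1 (0.047), Pax6 (-0.24) and Nfib (0.00052), and Reep1 was at -0.21 without the suffixed probe sets. Aifm1 kept its difference but not its call without the trend (-2.20, adjusted p = 0.0887), with the block (-2.20, 0.0605) and without any 1 control array (-2.25 to -2.17). Leaving Cngb1 out of the mature neuron markers, chosen after seeing the data, moved their score difference from -0.10 to 0.05. The causes were not tested.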
